A study of Homo sapiens with 42 samples.

Results

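The effect of THZ1 on messenger RNA levels was measured in HAP1 cells labelled WT by comparing the 3 libraries of THZ1-treated cells with the 3 libraries of cells that received DMSO, the vehicle. Both groups were chosen by their treatment and cell line labels, and together they make up 6 of the 42 libraries and 2 of the 14 groups of the series. The other groups are WT cells with a compound labelled YKL at 500 nM or 2 µM, with THZ531 or with a combination labelled at 500 nM or 2 µM. The column names give the combination as THZ531 with YKL. The same 7 treatments were given to HAP1 cells whose CDK7 carries the C312S substitution. All cells were treated for 24 h. The dose of THZ1 is not part of the labels. HAP1 is a near-haploid adherent line derived from a chronic myelogenous leukemia, the disease that the labels give. The labels do not state that the 3 libraries of each group were grown separately, so the p-values rest on a library-to-library variation that may be technical.

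CDK7, with cyclin H and MAT1, forms the CDK-activating kinase. As part of the general transcription factor TFIIH it phosphorylates the tail of RNA polymerase II early in transcription, and as a free complex it activates the kinases that drive the cell cycle. THZ1 binds CDK7 covalently through a cysteine outside the kinase domain and also reaches CDK12 and CDK13, the cyclin K-dependent kinases that act during elongation. Inhibitors of this class are known to lower nascent transcription broadly, and short-lived messenger RNAs are then lost first.

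Polyadenylated RNA was sequenced. The values are FPKM, fragments scaled by transcript length and for library size, so each is relative to the other RNAs of the library. How the authors scaled the libraries to each other is not stated. For genes above 1 FPKM in every library, the median log2 ratio to an average library was -0.0168 to -0.0099 in the THZ1 libraries and -0.0115 to 0.0045 in the DMSO libraries. The deposited scale thus kept the median gene nearly level, and a median change near 0 on it says nothing of total RNA. Across genes the libraries of a group correlated at 0.994 or higher and libraries of the 2 groups at 0.967 to 0.969. Read counts are not part of the table, but the steps between low values placed the depth of the THZ1 libraries at 0.576, 0.702 and 0.871 and that of the DMSO libraries at 1, 1.57 and 0.669, relative to DMSO replicate 1. Summed FPKM of genes was 600732 to 616098 in the THZ1 libraries and 515156 to 559442 in the DMSO libraries. Of 27 blood cell markers 6 were expressed highly enough to be tested and 10 were listed at 0 in all 6 libraries, with summed levels of 20.5 to 23.1 FPKM with THZ1 and 19.3 to 22.1 FPKM with DMSO. Most blood markers were thus below the level tested, in a line whose disease label is a leukemia. Fibroblast and mesenchymal markers passed in 7 of 12 cases and summed to 571 to 584 FPKM with THZ1 and 499 to 562 FPKM with DMSO. Epithelial markers passed in 4 of 10 cases and summed to 39.6 to 43.4 FPKM with THZ1 and 34.9 to 38.1 FPKM with DMSO.

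The synthetic ERCC spike-in RNAs, which carry no information about cells and serve as an outside scale, stood far higher over the genes in the THZ1 libraries. Each level was taken as a median log2 ratio to an average library, and the spike-in level minus the gene level was 1.83, 1.83 and 1.81 in the THZ1 libraries and -0.53, -0.63 and -0.68 in the DMSO libraries. The groups did not overlap, and the difference of 2.44 on the log2 scale corresponded to 5.42-fold (exact permutation test over libraries, two-sided, p = 0.1, the smallest that 3 against 3 can give). Each of the 23 ERCC RNAs above 1 FPKM was higher in all 3 THZ1 libraries than in all 3 DMSO libraries, by log2 ratios of 1.95 to 2.92. ERCC RNAs took 1.67% to 1.74% of FPKM in the THZ1 libraries and 0.357% to 0.419% in the DMSO libraries. The means in the other WT groups lay between -0.69 with THZ531 and 0.49 with the combination at 2 µM. The labels do not say how the spike-ins were added, so whether this ratio stands for RNA per cell, cell number or RNA input cannot be told apart, and in bulk RNA fewer cells and less RNA per cell look alike.

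**Figure D1:**
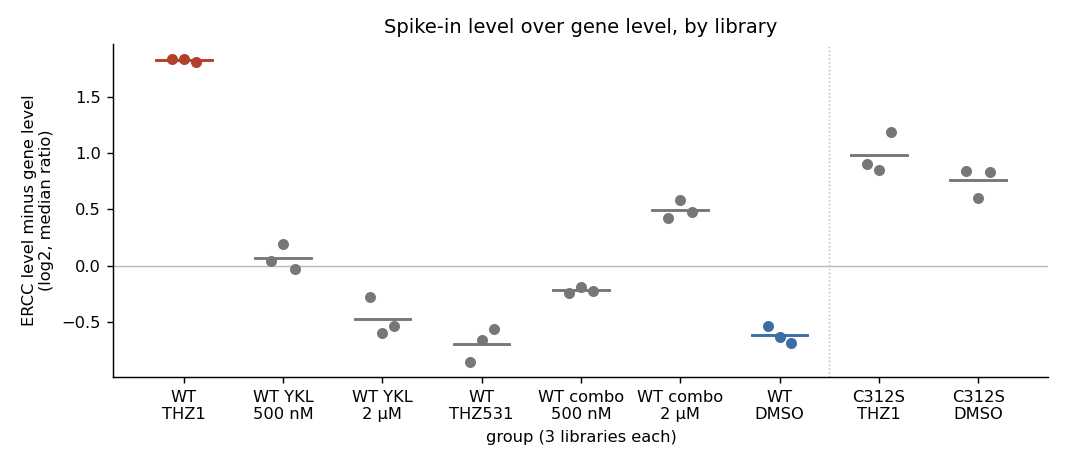
ERCC spike-in level minus gene level (log2) in each library of the 7 WT groups and of 2 C312S groups, with the group mean as a bar. The 3 WT THZ1 libraries lie at 1.81 to 1.83, above every other library plotted, and the 3 WT DMSO libraries at -0.68 to -0.53.

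Of 12599 genes that reached 1 FPKM in 3 or more of the 42 libraries, 8819 differed between THZ1 and DMSO (70% of those tested, limma on log2(FPKM + 1), Benjamini-Hochberg adjusted p under 0.05 over all genes). The THZ1 and DMSO libraries did not overlap in 8703 genes (69.1%), so a lack of overlap was common. In the deposited FPKM 4349 genes were higher with THZ1 (34.5%) and 4470 lower (35.5%), and the median gene changed by -0.0082. Counts of called genes in the lists below are to be read against these shares. A log2 change here is the difference in mean log2(FPKM + 1), THZ1 minus DMSO, which understates the change of low genes. Most changes were small: 247 genes rose and 281 fell at least 2-fold (a log2 change of 1), 26 rose and 5 fell by at least 2, and 7 rose and 0 fell by at least 3. After scaling each library by its ERCC level, the median gene changed by -1.99, 29 genes were higher with THZ1 (0.23%) and 12386 lower (98.3%). A gene called higher in the deposited values therefore rose relative to the other genes, and the spike-in scaled change of the main genes and lists is given beside the deposited one. The spike-in scaled change went with expression (Spearman's rho -0.70 across genes with mean FPKM in DMSO). Spike-in scaled medians of lists that differ in level, and of all genes, thus do not compare directly. Scaling to equal total FPKM moved the median gene to -0.17 and the share of calls that were higher to 30.5%, against 49.3% as deposited. It shifted the medians of the 48 gene lists by -0.19 to -0.13, and 13 medians that were positive turned negative.

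**Figure D2:**
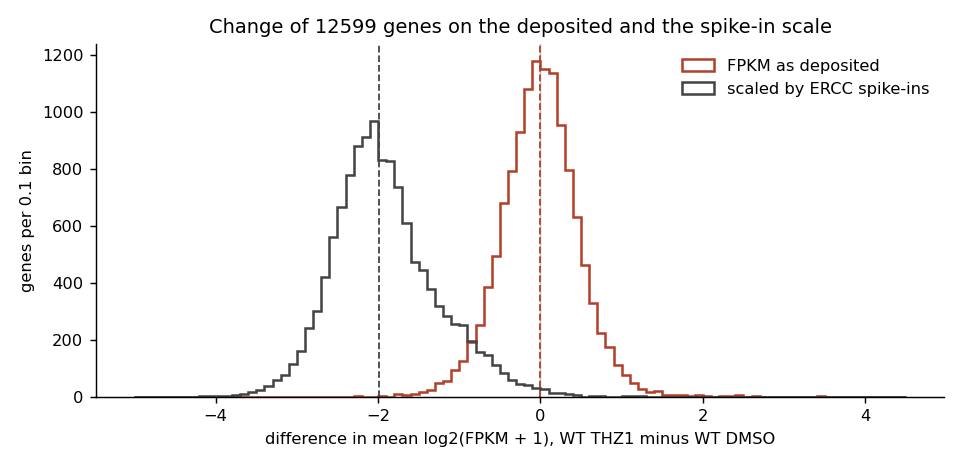
Number of genes by log2 change, WT THZ1 minus WT DMSO, for FPKM as deposited and after scaling by ERCC spike-ins, with dashed lines at the medians of -0.0082 and -1.99. The deposited changes lie on both sides of 0, whereas 98.3% of genes were called lower in the spike-in scaled values.

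Histone genes gave the largest rises. The clustered histone genes encode the core and linker histones of S phase, and their messages normally end in a stem-loop without a poly(A) tail, although some members also make polyadenylated forms. HIST1H2BJ, an H2B gene, had 35.1, 36.7 and 43.2 FPKM in the THZ1 libraries, against 0.758, 1.45 and 1.89 FPKM in the DMSO libraries. The groups were far apart, with a ratio of means of 28.1 (log2 change 4.08, SE 0.19, adjusted p = 2.5e-19). HIST1H2AC, an H2A gene, had 43.6, 42.4 and 38.4 FPKM in the THZ1 libraries and 1.84, 2.98 and 1.83 FPKM in the DMSO libraries. HIST1H2BK, the most abundant of the leading members, had 222, 216 and 215 FPKM in the THZ1 libraries and 20.7, 18.1 and 17.3 FPKM in the DMSO libraries. Neither gene's groups overlapped, and their log2 changes were 3.74 (SE 0.11) and 3.48 (SE 0.075). The table lists 70 clustered histone genes, of which 36 were tested, 28 rose and 0 fell, with a median of 1.15, against -0.0082 over all genes tested. HIST2H2BE (3.1), HIST1H2BO (3.14), the linker histone gene HIST1H1C (2.66) and HIST1H2BG (2.62) were also among the 12 largest rises of all genes that met the naming rule. The median moved with the pseudocount and the filter: it was 2.1682 with a pseudocount of 0.1, 0.4588 with a pseudocount of 5 and 2.4908 among genes that reached 5 FPKM. With spike-in scaling 8 members were higher, 10 lower and 18 not called. Their median was -0.092, against -1.99 over all genes, a comparison that the expression level of the members affects. On that scale HIST1H2BJ was higher by 1.98, HIST1H2AC by 1.56 and HIST1H2BK by 1.09. Histone genes of a cluster are near-identical in part, so the split of reads among members is uncertain. Of 14 factors that process histone 3′ ends, 7 fell and 4 rose, with a median of -0.086. The median was -0.0051 among genes that reached 5 FPKM and -0.251 with total-FPKM scaling. CASP8AP2 (-1.02, -2.84 with spike-in scaling) and the scaffold SYMPK (-0.95, -3.13) fell. SRRT (0.70, -1.70 with spike-in scaling) and NCBP1 (0.41, -1.93) rose in the deposited FPKM.

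The promoters of HIST1H2BJ and HIST1H2AC are shown because histone genes led the response and share short promoter elements. Both run from 250 bases before to 50 after the start given by RefSeq in GRCh38.p14, at chr6:27132746-27133045 (minus strand) and chr6:26123922-26124221 (plus strand). Capitals mark CCAAT and the TATA box letters TATAAA, searched on both strands, and TTTATAAA in HIST1H2BJ holds 2 overlapping matches, 1 on each strand.
HIST1H2BJ: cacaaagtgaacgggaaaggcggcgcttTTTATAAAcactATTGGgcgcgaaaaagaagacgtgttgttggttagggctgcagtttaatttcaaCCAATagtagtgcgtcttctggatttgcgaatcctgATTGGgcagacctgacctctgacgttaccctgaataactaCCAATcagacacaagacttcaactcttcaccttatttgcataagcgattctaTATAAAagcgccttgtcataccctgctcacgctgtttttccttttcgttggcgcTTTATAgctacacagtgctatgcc
HIST1H2AC: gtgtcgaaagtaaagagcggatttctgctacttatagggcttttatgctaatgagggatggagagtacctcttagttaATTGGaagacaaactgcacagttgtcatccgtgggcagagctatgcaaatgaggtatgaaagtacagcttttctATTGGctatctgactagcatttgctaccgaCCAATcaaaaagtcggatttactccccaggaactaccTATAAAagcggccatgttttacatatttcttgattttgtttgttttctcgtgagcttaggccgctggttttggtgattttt
HIST1H2BJ holds 8 matches and HIST1H2AC 4. Promoter windows were matched for 10231 of the 12599 genes tested. CCAAT was present in 84.4% of 32 histone windows, 50.5% of the 190 windows of genes that rose at least 2-fold, 40.1% of the 222 windows of genes that fell at least 2-fold and 37.0% of all windows. TATAAA was present in 62.5%, 18.4%, 4.5% and 5.3% of the same sets. Histone genes were not taken out of the set that rose, so these sets overlap: TATAAA was in 20 of the 32 histone windows and 35 of the 190. A match describes letters and says nothing of whether a factor binds there.

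Outside the histone genes, the largest rise of a gene without a near-identical or read-through partner was SPARCL1, which encodes a secreted matrix glycoprotein. It had 36.9, 38.9 and 44.6 FPKM in the THZ1 libraries and 2.86, 3.78 and 3.4 FPKM in the DMSO libraries, groups that did not overlap (log2 change 3.24, SE 0.082, 1.02 with spike-in scaling). Another 3 rows among the 12 largest rises were read-through transcripts that join neighbouring genes, NME1-NME2 (3.49), SERF2-C15ORF63 (2.96) and ZFP91-CNTF (2.82), whose reads overlap those of the single genes and are uncertain. SERF2-C15ORF63 was below 0.01 FPKM in 2 DMSO libraries and at 5.64 FPKM in the other. Of the 29 genes called higher with spike-in scaling, 26 had libraries apart in the deposited FPKM, as had 69.1% of all genes tested. With spike-in scaling 8 of the 29 were clustered histone genes. Besides these, the read-through rows NME1-NME2 (1.18) and ZFP91-CNTF (1.25) were called higher on that scale, whereas SERF2-C15ORF63 was not (1.21, limma adjusted p = 0.0652). Others of the 29 included FOS (0.81), the granin gene SCG2 (0.62), the Notch-like ligand gene DLK1 (0.54) and IER3 (0.41). IER5L (0.40), A2M (0.31) and ID2 (0.23) were also among them.

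Immediate early genes, which cells switch on within minutes of a stimulus and whose messages are short-lived, rose relative to other genes. FOS, a subunit of the AP-1 transcription factor, had 6.64, 7.05 and 5.93 FPKM in the THZ1 libraries and 0.248, 0.517 and 0.476 FPKM in the DMSO libraries. All 3 THZ1 libraries lay above all 3 DMSO libraries, with a log2 change of 2.42 (SE 0.11, adjusted p = 1.23e-19), or 3.7331 with a pseudocount of 0.1 and 1.0912 with a pseudocount of 5. Of 12 AP-1 genes 9 rose and 0 fell (median 0.60), including JUNB (1.62) and the stress-induced partner ATF3 (1.29). With spike-in scaling only FOS among them was higher, 10 were lower and the median was -1.04. With a pseudocount of 5 the deposited median was 0.2396 for this list and 0.2444 for the early gene list that follows. Of 35 tested genes of the EGR, IER, KLF and DUSP families and other early genes 27 rose and 3 fell (median 0.53), and 3 were higher and 29 lower with spike-in scaling (median -1.24). IER3, an early gene tied to survival signalling, had 29.6, 33.4 and 34.2 FPKM in the THZ1 libraries and 4.68, 3.87 and 4.6 FPKM in the DMSO libraries, with no overlap (log2 change 2.64, SE 0.10). ID2, an inhibitor of helix-loop-helix factors, had 90.8, 85.8 and 84.6 FPKM in the THZ1 libraries and 15.5, 13.7 and 12 FPKM in the DMSO libraries, also without overlap (log2 change 2.58, SE 0.083). KLF10, a zinc finger factor induced by TGF-beta, changed by 1.69 (-0.49 with spike-in scaling), and KLF13 fell by 0.15 (-2.21). The KLF13 call was lost without THZ1 replicate 3 (-0.0757), DMSO replicate 2 (-0.1263) or DMSO replicate 3 (-0.1471). The promoter of FOS is shown as that of the early gene highest on the spike-in scale, at chr14:75278578-75278877 (plus strand) in GRCh38.p14 from RefSeq, with the letters TATAAA in capitals.
FOS: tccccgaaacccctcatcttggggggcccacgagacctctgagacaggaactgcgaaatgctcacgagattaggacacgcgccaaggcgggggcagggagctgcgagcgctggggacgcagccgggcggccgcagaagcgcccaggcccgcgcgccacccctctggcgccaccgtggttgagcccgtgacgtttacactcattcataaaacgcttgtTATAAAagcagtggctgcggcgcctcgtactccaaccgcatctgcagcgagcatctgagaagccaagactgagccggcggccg
It holds 1 match, beginning 33 bases before the start. TATAAA was present in 33.3% of 9 AP-1 windows and 20.7% of 29 windows of the other early genes, against 5.3% of all windows.

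Most genes of the actin cytoskeleton rose relative to other genes, and targets and factors of the transcriptional coactivator YAP were divided between rises and genes not called. CTGF, a matricellular protein gene and a standard YAP readout, had 69.5, 74 and 72.5 FPKM in the THZ1 libraries and 16.2, 16 and 16.1 FPKM in the DMSO libraries. The libraries did not overlap (log2 change 2.09, SE 0.058, adjusted p = 1.96e-25), and with spike-in scaling the change was -0.26 (adjusted p = 0.0169). Of 20 tested genes of the YAP and TEAD pathway 10 rose and 3 fell, with a median of 0.18 (-1.83 with spike-in scaling, where all 20 were lower, and -6e-04 with total-FPKM scaling). CYR61 (1.06) and CRIM1 (1.04) were further targets that rose, whereas the pathway's own factors moved little. YAP1 changed by 0.11, WWTR1 by 0.08, LATS1 by 0.037 and TEAD4 by 0.078, none of them called, and TEAD2 fell by 0.32. With GC and length trends removed TEAD4 was called higher (0.2295, limma adjusted p = 0.000105). Actin genes and targets of serum response factor (SRF) rose in 21 of 23 cases and fell in 1, with a median of 0.62 (-1.77 with spike-in scaling, where all 23 were lower). Tropomyosin TPM1 had 454, 448 and 454 FPKM in the THZ1 libraries and 259, 224 and 220.0 FPKM in the DMSO libraries, with every THZ1 library above every DMSO library (log2 change 0.95, -1.47 with spike-in scaling). Caldesmon CALD1 (0.87) and actinin ACTN4 (0.92) were similar, and TGFB1I1 was the member that fell (-0.30). The TGFB1I1 call was lost without THZ1 replicate 2 (-0.2669) or 3 (-0.2493) and without DMSO replicate 1 (-0.2629) or 3 (-0.3104). It was also lost with GC and length trends removed (-0.1297, adjusted p = 0.314) and with no filter on low values (adjusted p = 0.0566). The CTGF promoter is shown because it carries several copies of the TEAD-binding letters, at chr6:131951323-131951622 (minus strand) in GRCh38.p14 from RefSeq. Capitals mark GGAATG on either strand and TATAAA.
CTGF: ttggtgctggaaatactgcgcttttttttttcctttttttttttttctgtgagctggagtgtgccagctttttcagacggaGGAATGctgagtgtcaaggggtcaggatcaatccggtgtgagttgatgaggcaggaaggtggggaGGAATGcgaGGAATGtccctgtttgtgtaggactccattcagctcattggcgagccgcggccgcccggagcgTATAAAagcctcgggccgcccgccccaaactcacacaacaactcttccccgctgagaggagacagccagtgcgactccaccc
It holds 4 matches, GGAATG beginning 169, 104 and 95 bases and TATAAA 32 bases before the start. GGAATG was present in 33.3% of 15 windows of the YAP and TEAD list and in 10.4% of all windows. The CArG box, the SRF element, was present in 28.6% of 21 windows of the actin and SRF list and in 1.05% of all windows. Both lists were made up partly of known targets of these factors, so such shares describe the lists and not the response to THZ1.

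The messenger RNAs of the kinases that THZ1 binds changed by less than 2-fold in the deposited FPKM. CDK7 had 35.1, 31.8 and 35.8 FPKM in the THZ1 libraries and 40.4, 37.5 and 36.6 FPKM in the DMSO libraries. The groups did not overlap but lay close, and the log2 change was -0.15 (SE 0.055, adjusted p = 0.0147, -2.47 with spike-in scaling). The call was lost without THZ1 replicate 2 (-0.1022, adjusted p = 0.13) or without DMSO replicate 1 (-0.1115, adjusted p = 0.103). Cyclin H (CCNH) changed by 0.40 (-1.95 with spike-in scaling) and MAT1 (MNAT1) by -0.0012, which was not called. With total-FPKM scaling MNAT1 was called lower (-0.1851, limma adjusted p = 0.0154). Of 10 genes of the CDK-activating kinase and TFIIH 3 rose and 3 fell, near the 34.5% and 35.5% of all genes. Their median was 0.001 (-2.22 with spike-in scaling, -0.1796 with total-FPKM scaling). GTF2H3 fell by 0.61 and the helicase gene ERCC3 changed by 0.16, or -0.0209 with total-FPKM scaling. CDK12 changed by 0.25, CDK13 by 0.44 and their partner CCNK by 0.22, and all 3 were lower with spike-in scaling (-2.02, -1.71 and -2.11). The CDK12 and CCNK calls were lost with total-FPKM scaling (0.0679 and 0.038). Of the 15 genes of this kinase group 7 rose and 5 fell. In every list described from here on no member was higher with spike-in scaling.

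Among regulators of RNA polymerase II, the large subunit gene POLR2A, whose product carries the tail that CDK7 phosphorylates, had 203, 207 and 191 FPKM in the THZ1 libraries and 49.3, 60.8 and 62.2 FPKM in the DMSO libraries. The libraries were far apart, with a ratio of means of 3.48 (log2 change 1.79, SE 0.075, adjusted p = 1.76e-20), whereas with spike-in scaling POLR2A changed by -0.62. Other polymerase II genes did not share this size: of 18 tested 7 rose and 4 fell (median 0.047, -2.19 with spike-in scaling, -0.1403 with total-FPKM scaling), with POLR2K at 0.48 and POLR2H at -0.80. HEXIM1, the inhibitor that holds the elongation kinase P-TEFb in the 7SK complex, had 24, 25.1 and 24.3 FPKM in the THZ1 libraries and 8.59, 7.83 and 7.28 FPKM in the DMSO libraries, without overlap (log2 change 1.52, SE 0.049, -0.72 with spike-in scaling). The kinase subunit CDK9 fell by 0.55 and the 7SK-binding LARP7 by 0.52, whereas the bromodomain gene BRD2 rose by 1.08 (-1.32 with spike-in scaling) and BRD3 fell by 0.50. In this list of 19 genes 11 rose and 5 fell (median 0.22, -1.75 with spike-in scaling, 0.079 with total-FPKM scaling). Of 21 NELF, DSIF and other elongation genes 12 rose and 5 fell (median 0.27, 0.0789 with total-FPKM scaling), with CTR9 of the PAF1 complex at 0.97 and NELFE at -0.43. Mediator subunits were higher in 10 and lower in 11 of 29 cases, near the 34.5% and 35.5% of all genes (median 0.01, -0.1672 with total-FPKM scaling). MED22 was among the largest falls of all genes. MED22 had 5.82, 6.0 and 4.93 FPKM in the THZ1 libraries and 20.4, 23 and 20.8 FPKM in the DMSO libraries (log2 change -1.77, -3.71 with spike-in scaling). TFIID and other general factors rose in 13 of 23 cases and fell in 6 (median 0.18, -0.0093 with total-FPKM scaling), with TAF13 at 1.21 and TAF12 at -1.42. Of 18 genes of RNA polymerases I and III 12 fell and 4 rose (median -0.19), led by POLR3E at -0.88 and POLR3D at -0.76.

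**Figure D3:**
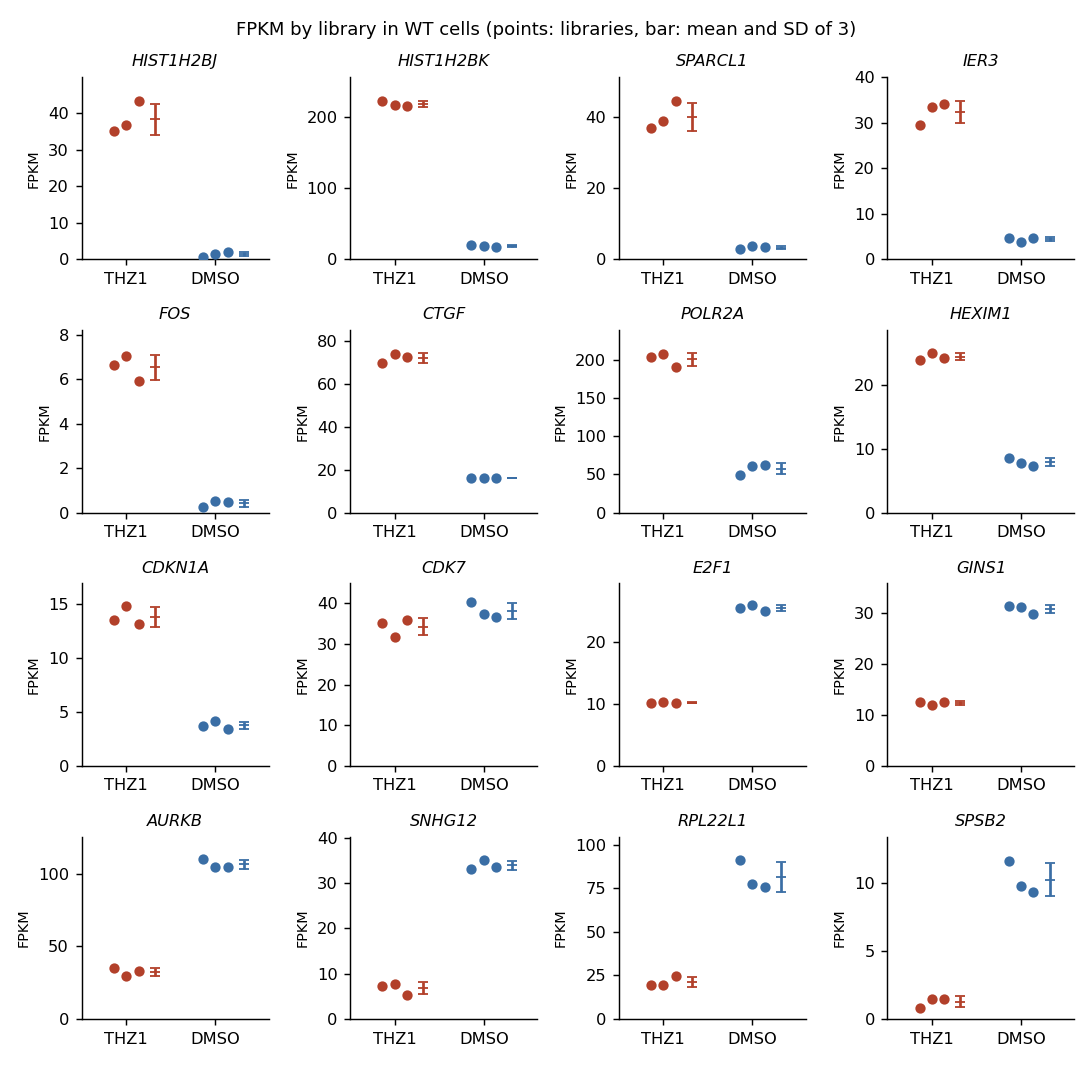
FPKM of 16 genes in each WT THZ1 and WT DMSO library, as deposited, with the mean and SD of 3 libraries beside the points and each axis starting at 0. The groups overlap in none of the 16 panels, and CDK7 shows the smallest distance, 34.2 ± 2.13 FPKM with THZ1 and 38.2 ± 2.01 FPKM with DMSO.

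Genes of DNA replication fell more often than they rose. E2F1, which activates S phase genes, had 10.2, 10.3 and 10.2 FPKM in the THZ1 libraries and 25.5, 26 and 25.1 FPKM in the DMSO libraries. The groups were far apart, and the log2 change was -1.24 (SE 0.069, adjusted p = 3.31e-17, -3.37 with spike-in scaling). Of 13 genes of the E2F and RB family 10 fell and 1 rose (median -0.48), with E2F5 at -1.13 and the repressor E2F4 at -0.83. The replicative helicase, which unwinds DNA at the fork, fell in 10 of 12 genes and rose in 2 (median -0.37). GINS1 had 12.6, 11.9 and 12.5 FPKM in the THZ1 libraries and 31.3, 31.1 and 29.9 FPKM in the DMSO libraries, without overlap (log2 change -1.25, -3.42 with spike-in scaling). MCM6 had 75.5, 76.6 and 81.9 FPKM in the THZ1 libraries and 116, 112 and 109.6 FPKM in the DMSO libraries (log2 change -0.52), and MCM2 was the exception among the MCM genes, higher by 0.34 but lower with spike-in scaling (-2.06). Origin licensing and firing factors fell in 12 of 20 cases and rose in 1 (median -0.33), with ORC3 at -0.77, DONSON at -0.65 and CDC6 at -0.46. DNA polymerases, the clamp and fork proteins fell in 16 of 23 cases and rose in 3 (median -0.27), with the polymerase epsilon subunit POLE2 at -0.88 and RNASEH2A at -0.87. Enzymes of deoxynucleotide synthesis split: thymidine kinase TK1 fell by 0.89 and ribonucleotide reductase RRM2 by 0.55, whereas thymidylate synthase TYMS rose by 0.58 (-1.84 with spike-in scaling). Among cyclins and kinases of G1 and S phase 10 of 20 rose and 5 fell (median 0.11, -0.075 with total-FPKM scaling): CCND1 rose by 1.19 (-0.86 with spike-in scaling), CDK4 fell by 0.51, CDK2 by 0.45, CCNA2 by 0.42 and CCNE2 by 0.51. With spike-in scaling every tested gene of these 6 lists was lower.

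The promoters of E2F1 and MCM6 are shown because both genes fell and hold E2F letters, at chr20:33686336-33686635 (minus strand) and chr2:135876394-135876693 (minus strand) in GRCh38.p14 from RefSeq. Capitals mark TTTCCCGC, TTTCGCGC, TTTGCCGC and TTTGGCGC on either strand.
E2F1: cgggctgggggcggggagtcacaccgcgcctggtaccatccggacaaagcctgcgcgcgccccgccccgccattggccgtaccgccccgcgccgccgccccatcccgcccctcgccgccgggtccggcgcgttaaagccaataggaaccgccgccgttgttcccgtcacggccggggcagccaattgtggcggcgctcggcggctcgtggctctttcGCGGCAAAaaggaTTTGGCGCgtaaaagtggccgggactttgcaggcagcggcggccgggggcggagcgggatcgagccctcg
MCM6: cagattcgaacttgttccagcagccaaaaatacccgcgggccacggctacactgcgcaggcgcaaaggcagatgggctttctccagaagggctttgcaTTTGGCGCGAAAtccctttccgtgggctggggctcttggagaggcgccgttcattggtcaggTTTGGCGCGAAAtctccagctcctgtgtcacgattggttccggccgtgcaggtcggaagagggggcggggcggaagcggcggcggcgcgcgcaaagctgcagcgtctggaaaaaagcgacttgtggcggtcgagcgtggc
E2F1 holds 2 matches, and MCM6 holds 4 that overlap in pairs. Such letters were present in 45.5% of 11 windows of the E2F and RB family, 77.8% of 9 helicase windows and 5.61% of all windows. They were present in 8.56% of windows of genes that fell at least 2-fold and 4.74% of windows of genes that rose at least 2-fold. The E2F and helicase lists were made up by gene function, so their shares say nothing of the response to THZ1.

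Mitotic genes moved in both directions, with more falls than rises. AURKB, the kinase of the chromosomal passenger complex, had 34.8, 29.2 and 32.8 FPKM in the THZ1 libraries and 110.0, 105 and 105 FPKM in the DMSO libraries, the largest fall of its list (log2 change -1.69, SE 0.065, adjusted p = 1.56e-21, -4.02 with spike-in scaling). Of 21 mitotic kinase, passenger complex and checkpoint genes 12 fell and 2 rose (median -0.22), with PKMYT1 at -1.14 and PLK4 at -0.96, whereas the spindle factor TPX2 was higher by 0.35 and NEK2 by 0.35 (-2.06 and -1.96 with spike-in scaling). Of 21 kinetochore and condensin genes 16 fell and 3 rose (median -0.49), with the condensin subunit NCAPH at -1.1 and the centromeric histone CENPA at -0.88. Kinesins fell in 9 of 13 cases and rose in 3 (median -0.16). Cyclin B1 (CCNB1) had 131, 141 and 150.2 FPKM in the THZ1 libraries and 274, 245 and 247 FPKM in the DMSO libraries, whereas cyclin B2 (CCNB2) had 213, 221 and 227 FPKM in the THZ1 libraries and 193, 165 and 159 FPKM in the DMSO libraries. The libraries of neither cyclin overlapped between groups, and the log2 changes were -0.85 and 0.36 (-3.26 and -2.06 with spike-in scaling). In their list of 23 G2 and mitosis regulators 13 fell and 6 rose (median -0.20), with CDC25B at -0.90.

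Repair genes fell more often than they rose. Of 21 homologous recombination genes 11 fell and 1 rose (median -0.18). BRCA1 had 7.71, 8.28 and 8.74 FPKM in the THZ1 libraries and 16.8, 16.7 and 18.1 FPKM in the DMSO libraries (log2 change -0.98, -3.04 with spike-in scaling), XRCC2 and XRCC3 changed by -0.92 and -0.91, and the end-resection gene RBBP8 was the member that rose (0.40, -1.93 with spike-in scaling). Of 12 Fanconi anaemia genes 7 fell and 2 rose: FANCG changed by -0.73, whereas FANCA had 23.3, 24 and 24.6 FPKM in the THZ1 libraries and 12.8, 12.9 and 14 FPKM in the DMSO libraries (log2 change 0.81, -1.45 with spike-in scaling). Of 18 damage kinases and sensors 9 fell and 4 rose, with RAD9A at -0.87 and the ubiquitin ligase gene RNF168 at 0.78 (-1.34 with spike-in scaling).

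Targets of p53 moved in both directions, as genes did in general. CDKN1A, which encodes the cell cycle inhibitor p21, had 13.4, 14.8 and 13.1 FPKM in the THZ1 libraries and 3.64, 4.11 and 3.43 FPKM in the DMSO libraries, without overlap (log2 change 1.64, SE 0.095, adjusted p = 8.68e-17, -0.45 with spike-in scaling). FDXR (1.44) and PLK2 (1.29) also rose, whereas BAX had 55.9, 51.7 and 54.5 FPKM in the THZ1 libraries and 86.1, 86.9 and 84.7 FPKM in the DMSO libraries (log2 change -0.66) and MDM2, the ubiquitin ligase of p53, changed by -0.52. In all 12 of 26 rose and 8 fell, against 34.5% and 35.5% of all genes (median 0.082, -0.0624 with total-FPKM scaling). All 26 were lower with spike-in scaling. HAP1 cells are reported to carry an altered p53, and the list describes genes, not p53 activity. In the BCL2 family 9 of 16 fell and 6 rose: the survival gene BCL2L1 changed by 0.58, BCL2L2 by -1.22, the BH3-only gene BIK by 0.84 and MCL1 by 0.19, all lower with spike-in scaling (-1.77, -2.92, -1.23 and -2.18). The MCL1 call was lost with total-FPKM scaling (0.0017). MYC had 194, 198 and 197 FPKM in the THZ1 libraries and 133, 138 and 131 FPKM in the DMSO libraries, without overlap (log2 change 0.55, -1.86 with spike-in scaling), and the MAX-binding antagonist MXD4 rose by 1.08 while the MAX-like gene MLX fell by 1.26.

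Stress programmes differed in direction. Of 25 tested genes of NRF2, its regulators and its targets, which detoxify electrophiles and handle iron, 17 rose and 3 fell (median 0.36, -1.81 with spike-in scaling, 0.1675 with total-FPKM scaling). The quinone reductase gene NQO1 had 59.3, 57.1 and 61.2 FPKM in the THZ1 libraries and 25.7, 22.8 and 19.5 FPKM in the DMSO libraries, without overlap (log2 change 1.35, -1.0 with spike-in scaling). Thioredoxin reductase TXNRD1 rose by 0.66, whereas NRF2 itself (NFE2L2) fell by 0.33 and its adaptor KEAP1 by 0.38. Heat shock chaperones rose in 17 of 23 cases and fell in 2 (median 0.20, 0.0126 with total-FPKM scaling), the co-chaperone BAG3 by 1.22 and HSPH1 by 0.61, whereas HSPA8 fell by 0.39. In the integrated stress response the factor ATF4 drives amino acid genes, and of 28 tested 17 fell and 6 rose (median -0.25, -2.4 with spike-in scaling). ATF4 had 229, 242 and 241 FPKM in the THZ1 libraries and 414, 384 and 376 FPKM in the DMSO libraries, without overlap (log2 change -0.72, -3.13 with spike-in scaling), cystathionine synthase CBS changed by -0.87 and the synthetase AARS by -1.01. Among cytokine and NF-kB genes 7 of 19 were tested, 2 rose and 2 fell (median 0.055, -0.1211 with total-FPKM scaling). CCL2, a monocyte chemokine, had 22.9, 26.4 and 24.5 FPKM in the THZ1 libraries and 6.27, 5.86 and 6.51 FPKM in the DMSO libraries, without overlap (log2 change 1.83, -0.40 with spike-in scaling). Of 14 interferon response genes 6 rose and 4 fell (median 0.066, -0.0692 with total-FPKM scaling), and of 26 cholesterol genes 12 rose and 9 fell (median 0.10, -0.0926 with total-FPKM scaling). Over all genes 34.5% rose and 35.5% fell.

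Among housekeeping lists rises were more frequent than falls. Nuclear genes of oxidative phosphorylation rose in 50 of 76 cases and fell in 10 (median 0.29), proteasome subunits in 20 of 31 and 3 (median 0.24) and cytosolic ribosomal proteins in 46 of 79 and 8 (median 0.23). The cytochrome oxidase subunit COX6C had 211, 205 and 224 FPKM in the THZ1 libraries and 117, 102 and 101 FPKM in the DMSO libraries (log2 change 1.0, -1.41 with spike-in scaling), PSMD2 changed by 0.91 and the ribosomal stalk protein RPLP2 by 0.58. With total-FPKM scaling the 3 medians were 0.1007, 0.0506 and 0.0393. With spike-in scaling they were -2.11, -2.16 and -2.2, against -1.99 over all genes, a comparison that the expression level of the lists affects. RPL13A was 1 of the 8 ribosomal protein genes that fell (log2 change -0.84), and the lowest change in that list was -1.76. RPL13A had 446, 466 and 478 FPKM in the THZ1 libraries and 897, 812 and 788 FPKM in the DMSO libraries. RNA-binding splicing regulators fell more often than they rose: SR splicing factors fell in 12 of 20 cases and rose in 6 (median -0.27), with SRSF1 at -0.98, and hnRNP genes fell in 10 of 20 and rose in 5 (median -0.09), with HNRNPDL at -1.13 and HNRNPA1 at -0.87. Of 21 cleavage and polyadenylation factors 9 fell and 8 rose, against 35.5% and 34.5% of all genes, with CPSF2 at -0.83 and CLP1 at 0.70.

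**Figure D4:**
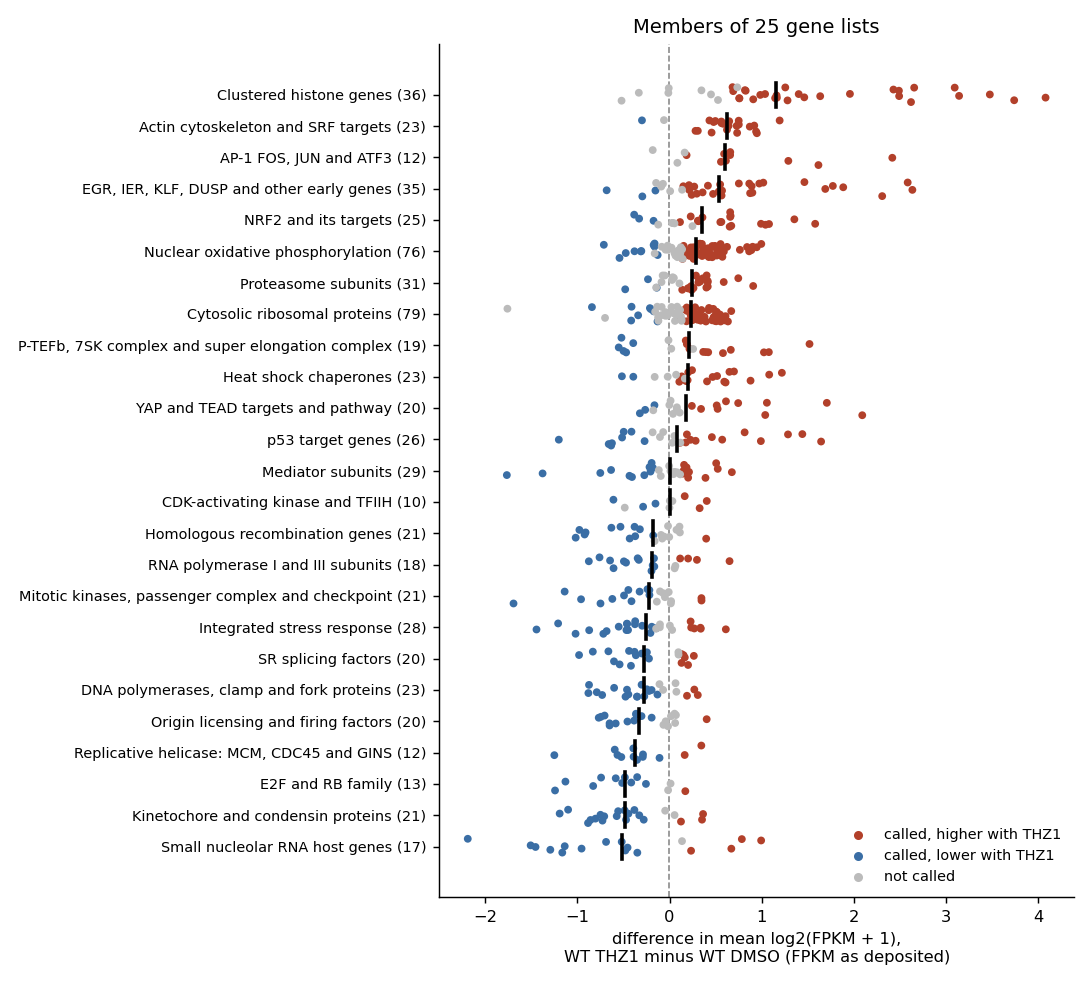
Log2 change, WT THZ1 minus WT DMSO, of each tested member of 25 gene lists, in FPKM as deposited, with the list's median as a black bar and the median of all genes, -0.0082, as a dashed line (number tested in brackets). Medians run from 1.15 for histone genes to -0.52 for small nucleolar RNA host genes, and every list plotted holds members on both sides of 0.

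No gene fell by as much as 3 on the log2 scale, and the largest fall was that of SPSB2. SPSB2, which encodes a substrate receptor of a ubiquitin ligase, had 0.827, 1.5 and 1.48 FPKM in the THZ1 libraries and 11.7, 9.82 and 9.32 FPKM in the DMSO libraries, without overlap (log2 change -2.32, SE 0.10, adjusted p = 2.03e-20, -3.63 with spike-in scaling). The host gene SNHG12, whose introns carry small nucleolar RNAs, had 7.22, 7.77 and 5.22 FPKM in the THZ1 libraries and 33.1, 35.1 and 33.6 FPKM in the DMSO libraries, also without overlap (log2 change -2.19, SE 0.084, -4.2 with spike-in scaling). Of 17 such host genes 12 fell and 4 rose (median -0.52): SNHG3 changed by -1.45 and SNHG16 by -1.29, whereas SNHG9 rose by 0.99 and SNHG15 by 0.78 (-1.43 and -1.59 with spike-in scaling). RPL22L1, a paralogue of a ribosomal protein gene, had 19.5, 19.3 and 24.7 FPKM in the THZ1 libraries and 91.5, 77.4 and 75.7 FPKM in the DMSO libraries, without overlap (log2 change -1.9, -4.17 with spike-in scaling). The DNA glycosylase gene SMUG1 (-2.07), the arsenic methyltransferase gene AS3MT (-2.28), the glycosyltransferase gene GBGT1 (-1.98), C11orf98 (-1.94), the antisense RNA ELFN1-AS1 (-1.99), SAPCD1 (-1.8), the telomere-binding shelterin gene TINF2 (-1.76) and TMEM223 (-1.76) complete the 12 largest falls with MED22. All 12 were also lower with spike-in scaling.

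Changes varied weakly with gene structure, matched for 12376 genes to GENCODE v29 on GRCh38. Transcript length, exon number and GC content were those of the longest annotated transcript, which need not be the one expressed. Across genes, which are not independent replicates, Spearman's rho of the log2 change was 0.16 with the genomic span, 0.1 with transcript length, 0.095 with exon number and -0.11 with GC content. In the fifth of genes with the shortest span (up to 9.78 kb) 26.5% were higher and 46.2% lower. In the fifth with the longest span (from 94.2 kb) 42.8% were higher and 25.9% lower. In the fifth with the highest GC content (from 58.6%) 23.6% were higher and 45.3% lower.

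The values of WT THZ1 were next compared with each of the other 6 WT groups, in the same fit. Genes above every other WT group, by adjusted p under 0.05 in all 6 comparisons and with all 3 THZ1 libraries above the 18 others, numbered 1302 (10.3%), and genes below numbered 858 (6.81%). The 6 comparisons share the THZ1 libraries, and the doses of THZ1 and THZ531 are not part of the labels. With total-FPKM scaling the counts were 375 above and 2398 below, and with spike-in scaling 1 and 11136. IER3 stood at 32.4 ± 2.46 FPKM with THZ1 (SD, n = 3), while the highest of the other means was 7.17 ± 0.719 with the combination at 500 nM, and the smallest of the 6 log2 differences was 2.03. A2M, which encodes a secreted protease inhibitor, stood at 12.4 ± 0.296 FPKM with THZ1 and at 2.96 ± 0.0956 FPKM with YKL at 2 µM, the highest of the others. FOS reached 6.54 ± 0.567 FPKM with THZ1, against 1.5 ± 0.23 FPKM with the combination at 500 nM. SLC7A5P1 (2.02), DLK1 (1.88), ICAM5 (1.81), IER5L (1.81), SCG2 (1.72) and IER2 (1.7) were also above every other group, given with their smallest log2 difference, which was 1.76 for A2M and 1.59 for FOS. At the other end TMEM223 stood at 9.77 ± 1.32 FPKM with THZ1 and at 17.5 ± 0.549 FPKM with the combination at 500 nM, the lowest of the others. AS3MT (-1.16), the lipid transport gene ARV1 (-0.90), the CTCF paralogue CTCFL (-0.89), PITPNA-AS1 (-0.80), the BLM complex gene RMI2 (-0.74), the iron-sulfur assembly gene ISCA2 (-0.72) and LOC100419583 (-0.72) were also below every other group. Several leading genes of the comparison with DMSO were not extreme in THZ1: HIST1H2BK stood at 218 ± 3.69 FPKM with THZ1 and 280.2 ± 4.75 FPKM with the combination at 2 µM, CDKN1A at 13.8 ± 0.881 FPKM with THZ1 and 13.6 ± 0.869 FPKM with YKL at 500 nM, and AURKB at 32.3 ± 2.82 FPKM with THZ1 and 32.7 ± 2.86 FPKM with YKL at 2 µM.

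**Figure D5:**
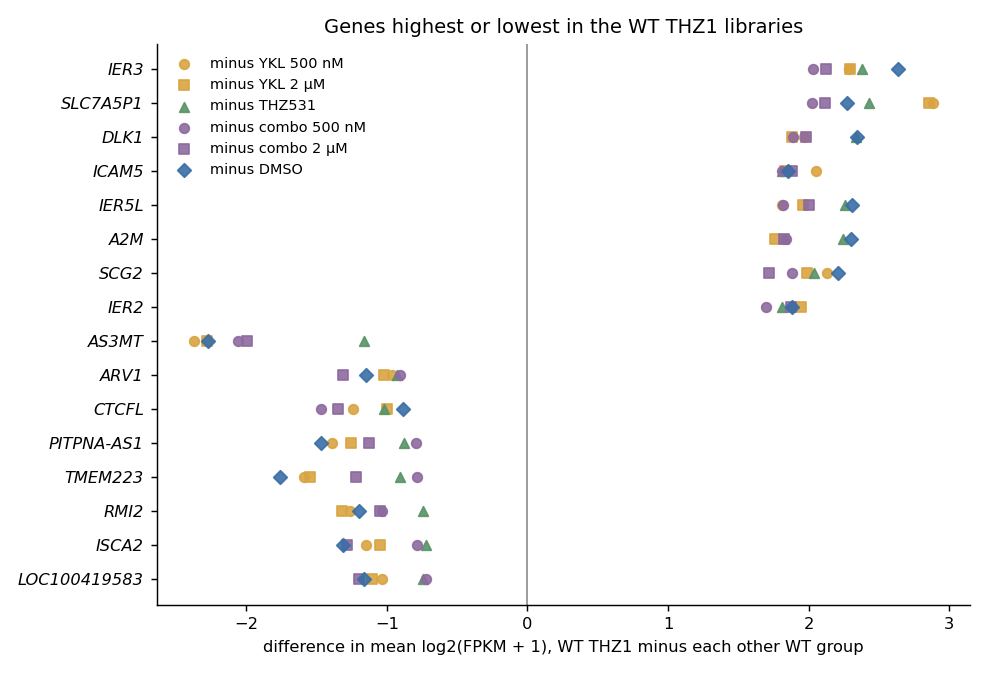
Difference in mean log2(FPKM + 1), WT THZ1 minus each other WT group, for the 8 genes most clearly above and the 8 most clearly below all 6 other groups, in FPKM as deposited. The smallest of the 6 differences is 2.03 for IER3 and 1.7 for IER2, and -1.16 for AS3MT and -0.72 for LOC100419583.

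The C312S cells carry a CDK7 that lacks the cysteine that THZ1 binds. Their THZ1 effect, against that line's own DMSO, differed from the WT effect in 5405 genes (42.9%, limma interaction). Of 12599 genes tested, 8145 were called in C312S and 8819 in WT, and 5626 were called in the same direction in both lines. Most genes were called in each line, so the shared count is to be read against these totals. With spike-in scaling the THZ1 effect differed between the lines in 12298 genes. The difference in ERCC level relative to genes, THZ1 minus DMSO, was 0.22 in C312S and 2.44 in WT. Summed gene FPKM was 800930 to 886655 in the C312S THZ1 libraries and 746904 to 775993 in the C312S DMSO libraries. Both ranges lay above both WT groups and above the other C312S groups (525698 to 580238). The mean ERCC level minus gene level was 0.76 in C312S DMSO and 0.98 in C312S THZ1, against -0.80 to -0.03 in the other C312S groups. The C312S DMSO baseline thus stood apart within its own line, and the part of this in the difference was not tested. CDKN1A changed by -0.22 with THZ1 in C312S and 1.64 in WT (difference -1.86, SE 0.13, adjusted p = 5.47e-13). A2M changed by 0.071 in C312S, where it was near 0.1 FPKM, and 2.3 in WT (difference -2.23, SE 0.075, adjusted p = 1.14e-21). POLR2A changed by 0.97 in C312S and 1.79 in WT (difference -0.82, SE 0.11, adjusted p = 1.4e-07), and E2F1 by -0.65 in C312S and -1.24 in WT (difference 0.59, SE 0.10, adjusted p = 9.26e-06). HEXIM1 changed by 1.5 in C312S and 1.52 in WT, and IER2 by 2.03 in C312S and 1.89 in WT, differences of -0.014, SE 0.069, adjusted p = 0.888 and of 0.14, SE 0.13, adjusted p = 0.398. MYC changed more in C312S, by 1.14, than in WT, by 0.55 (difference 0.59, SE 0.075, adjusted p = 1.2e-07).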

How the data were processed

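Polyadenylated RNA of HAP1 cells was sequenced with a stranded kit, per the labels' protocols. The deposited unit is FPKM per gene symbol, made by the authors; HISAT2 2.0.4, Cufflinks 2.2.1, Cuffnorm and hg19 are listed, without roles, per the submitters' processing notes. Total read numbers are not given in the sources used here, so relative depth was read from the steps between low values, and no counting interval is given. All 42 columns matched a sample, and 0 were left unmatched.

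Of 26320 rows, 92 ERCC and 2269 rows taken as short RNA by name or annotated type were left out of the gene test, among them the protein-coding gene TRNAU1AP, caught by its name. Genes reaching 1 FPKM in at least 3 of the 42 libraries (12599) were tested as log2(FPKM + 1) by limma (version 3.58.1, on R 4.3.3), which fitted all 42 libraries as 14 groups with 28 residual degrees of freedom, moderated standard errors and Benjamini-Hochberg adjustment over all genes at 0.05. The interaction and the comparisons with other WT groups came from the same fit. Spike-in scaling divided each library by its median ERCC ratio. The code was tested on simulated data. Figures used Python 3.11.15 and matplotlib 3.10.9.

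Named genes were the 12 largest rises and 12 largest falls, the 12 largest rises with spike-in scaling, the 8 farthest above and the 8 farthest below every other WT group, and up to 3 per direction with the smallest p in each list, among called genes with a group mean of at least 5 FPKM, no exact 0 and libraries apart, with a few listed kinase, cyclin and target genes and members that were not called. Members and lists were chosen with earlier results of these data known. Alternatives were other pseudocounts, filters, scalings and fits, a replicate block, and leaving out each library in turn.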

Additional observations from a re-analysis of the deposited data

Results flagged for a closer look

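The THZ1 effect differed between the lines in 5405 genes by the limma interaction, with 2867 differences (C312S minus WT) above 0 and 2538 below. This was listed because the same contrast was tested in both lines and the difference itself was called.

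Among rows taken as short RNA, which take no part in the gene comparison, 217 of 2269 passed the filter, and 10 were higher and 14 lower with THZ1 than with DMSO in WT cells. The row TRNAU1AP is a protein-coding gene caught by its name; it averaged 10.7 FPKM with THZ1 and 11.6 FPKM with DMSO and was in neither count. They were listed because they lie outside the main measurement.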

How the results depend on the processing

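The count of 8819 called genes ranged from 8409 to 8486 when one library was left out, and was 8880 with a replicate block (8775 genes called in both, same direction), 8059 with the 6 libraries alone, 9900 with no filter on low values and 7095 with 5 FPKM required. With total-FPKM scaling 2711 genes were higher, 30.5% of calls, against 4349 and 49.3% as deposited; 375 genes then stood above every other WT group and 2398 below, and with spike-in scaling 1 and 11136. Spike-in scaling called 12298 genes for the interaction. Without a filter 87 genes were higher with spike-in scaling, against 29. With summed ERCC FPKM the spike-in difference was 2.3592. Equal replicate numbers did not deviate together (correlations -0.0085, 0.0018 and -9e-04), so they pair no libraries. Over the named genes and alternatives, 2260 results kept direction and call, 15 lost the call, 2 gained it and 1 reversed.

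With total-FPKM scaling 13 of 48 list medians turned negative. They were those of G1 and S cyclins (-0.075), p53 targets (-0.0624), YAP genes (-6e-04), cholesterol (-0.0926), TFIID (-0.0093), interferon (-0.0692), NF-kB (-0.1211), RNA polymerase II (-0.1403), deoxynucleotide (-0.1681), TFIIH (-0.1796), Mediator (-0.1672) and paraspeckle genes (-0.1668) and epithelial markers (-0.0667). The NF-kB median was also -5e-04 with 5 FPKM required and -0.0098 with GC and length trends removed. ERCC3 was -0.0209 with total-FPKM scaling. The cause was not tested.

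In the deposited values a gene can rise only relative to other genes. Read depth is unknown in absolute terms, the dose of THZ1 and the addition of spike-ins are not in the labels, and 3 libraries per group limit precision.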
